A study of Mus musculus with 48 samples.

Results

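The genes described here are the epithelial sodium channel genes Scnn1a, Scnn1b and Scnn1g, the kinase gene Sgk1 and the ubiquitin ligase gene Nedd4l. They were taken by symbol from the deposited expression tables, where each symbol names 1 gene, and are 5 of 49585 genes. RNA was sequenced from whole kidneys of mice labelled WT that had received vehicle or the amino acid D-alanine, collected at circadian times CT0, CT4, CT8, CT12, CT16 and CT20. Each of the 12 groups of treatment and time held 4 libraries, and the design text says that the kidneys came from different mice and that the experiment was run 2 times. The series title asks how D-alanine affects the circadian rhythm. The labels used here state no dose, route, strain, sex or age.

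The epithelial sodium channel, ENaC, lets sodium pass from the tubule fluid into principal cells of the collecting duct and neighbouring late distal tubule, and is built from an alpha (Scnn1a), a beta (Scnn1b) and a gamma (Scnn1g) subunit. Aldosterone, acting through the mineralocorticoid receptor, induces the kinase SGK1 and, in the kidney, the alpha subunit. NEDD4L, also called NEDD4-2, ubiquitinates the channel and so takes it from the cell surface, and phosphorylation of NEDD4L by SGK1 weakens that binding.

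Values are FPKM, fragment counts scaled to transcript length and to the mapped fragments of the library, so levels can be compared between genes per unit of length. Depth recovered from the values ranged between 7626057 and 14403234 fragments a library (median 11601135). The tissue label was borne out by its markers: Slc34a1, the phosphate transporter of the proximal tubule, ran from 1144 to 3018 FPKM, and Aqp2, the water channel of principal cells, from 77.4 to 2870. The libraries were deposited in 2 tables, each with 2 libraries of every group, called here the first and the second table. They may be the 2 runs that the design text names, but no label says so. In every group, replicates 1 and 2 are the libraries of the first table and replicates 3 and 4 those of the second. Mitochondrial genes held 28.919% to 46.997% of the summed FPKM in libraries of the first table and 14.935% to 23.398% in the second. Levels compared between the tables are not adjusted for this share unless stated. Replicate 2 of D-alanine CT0 stood apart: its Aqp2 was 2870 FPKM against a median of 246.9 over all libraries, its Akr1b3 (aldose reductase of the inner medulla) 475.6 against 11.02, its Emcn (endothelium) 79.0 against 11.7, and its Slc34a1 was the lowest of all. Not all inner medulla markers were high in it: Slc6a6 (the taurine transporter) was 15.4 FPKM, the third lowest, against a median of 23.9, and Aqp1 was 271.9 against 222.7. The main Sgk1 results, and others it moves, are given with and without it.

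All 5 genes are protein coding and on the forward strand of GRCm38, and the position of Nedd4l is given with its values. Scnn1a (ENSMUSG00000030340) lies at chr6:125320659-125344943, Scnn1g (ENSMUSG00000000216) at chr7:121734479-121768475 and, next to it, Scnn1b (ENSMUSG00000030873) at chr7:121865038-121918514. Sgk1 (ENSMUSG00000019970) lies at chr10:21882184-21999903 and has 13 annotated transcripts. Scnn1b overlaps Cog7 on the other strand without shared exon bases.

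RefSeq start sites (GRCm38.p6) were listed for 3 of the genes, Scnn1b, Scnn1g and Sgk1, the last with 6 starts. The 250 bases before 4 of these starts are shown because corticosteroids and the circadian clock are the inputs best known for this pathway: the Sgk1 start whose window holds hormone and clock motifs, an Sgk1 start downstream of it, and the single starts of Scnn1g and Scnn1b. Windows are on the forward strand, 5′ to 3′. Capitals mark matches to the hormone response hexamer TGTTCT, the full palindromic hormone response element (AGAACA, any 3 bases, TGTTCT), and the E-box CACGTG bound by clock proteins, each searched on both strands.
Sgk1, chr10:21993640-21993889: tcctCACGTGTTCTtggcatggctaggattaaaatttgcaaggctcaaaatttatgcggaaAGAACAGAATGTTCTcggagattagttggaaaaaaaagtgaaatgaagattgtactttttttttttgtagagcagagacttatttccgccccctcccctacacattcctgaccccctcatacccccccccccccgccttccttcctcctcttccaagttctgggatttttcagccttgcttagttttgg
Sgk1, chr10:21994416-21994665: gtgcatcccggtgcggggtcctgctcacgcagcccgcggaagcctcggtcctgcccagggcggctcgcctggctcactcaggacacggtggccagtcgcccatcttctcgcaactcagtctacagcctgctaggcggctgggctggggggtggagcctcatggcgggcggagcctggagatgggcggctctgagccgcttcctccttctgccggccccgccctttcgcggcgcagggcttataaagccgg
Scnn1g, chr7:121734229-121734478: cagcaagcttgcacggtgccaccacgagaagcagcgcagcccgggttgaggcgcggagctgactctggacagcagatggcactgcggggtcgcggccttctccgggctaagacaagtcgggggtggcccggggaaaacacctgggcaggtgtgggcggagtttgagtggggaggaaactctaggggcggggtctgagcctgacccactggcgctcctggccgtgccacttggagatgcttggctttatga
Scnn1b, chr7:121864788-121865037: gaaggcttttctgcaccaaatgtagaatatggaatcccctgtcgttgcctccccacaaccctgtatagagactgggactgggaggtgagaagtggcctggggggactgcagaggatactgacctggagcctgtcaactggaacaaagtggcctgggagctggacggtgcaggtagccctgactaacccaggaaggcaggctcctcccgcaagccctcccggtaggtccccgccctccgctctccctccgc

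The first Sgk1 window holds the full element, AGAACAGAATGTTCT, beginning 189 bases before the start, and an E-box beginning 246 bases before it. The hexamer was found there 3 times, 2 of them inside the full element and 1 overlapping the E-box. Of 32851 windows of the same length in the same RefSeq table, 3 held the full element, which is 0.009%, while 16.085% held the hexamer and 6.021% the E-box. The other Sgk1 window and the Scnn1g and Scnn1b windows held none of these letters. Of the Sgk1 windows not shown, those of the starts at 21882184 and 21992223 also held the hexamer, beginning 195 and 13 bases before the start. The TATA motif TATAAA occurs in the second Sgk1 window 11 bases before its start, in lower case, and in 12.368% of all windows. A match describes letters and no site of binding, and the gene-level values used here do not separate the starts.

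Per unit of length, the alpha and beta subunits stood at nearly the same level and the gamma subunit lower. Over all 48 libraries Scnn1a averaged 24.03 ± 4.97 FPKM (SD), Scnn1b 25.1 ± 5.39 and Scnn1g 9.91 ± 2.46. The alpha to beta ratio averaged 0.984 ± 0.231 and was above 1 in 23 of 48 libraries. It split by table, above 1 in 6 of 24 libraries of the first table and in 17 of 24 of the second. Scnn1b was above Scnn1g in 48 of 48 libraries, with a mean ratio of 2.63 ± 0.649, and so was Scnn1a, with 2.50 ± 0.518. Nedd4l, at 12.4 ± 1.48, was the steadiest of the 5, with a coefficient of variation of 11.9%. Sgk1 was the most variable: its mean of 27.6 ± 33.9 FPKM covered libraries from 5.59 to 218.7, a 39.1-fold range, with a median of 16.6. Without replicate 2 of D-alanine CT0 the mean was 23.5 ± 19.1 and the range 18.6-fold, up to 103.9 FPKM. These are kidney homogenates, in which fewer cells of a type and less RNA per cell cannot be told apart. Between 143 fragments (the Scnn1g minimum) and 13353 (the Sgk1 maximum) stood behind each value of the 4 genes other than Nedd4l, and the 2 extremes mark where counting error was largest and smallest.

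**Figure D1:**
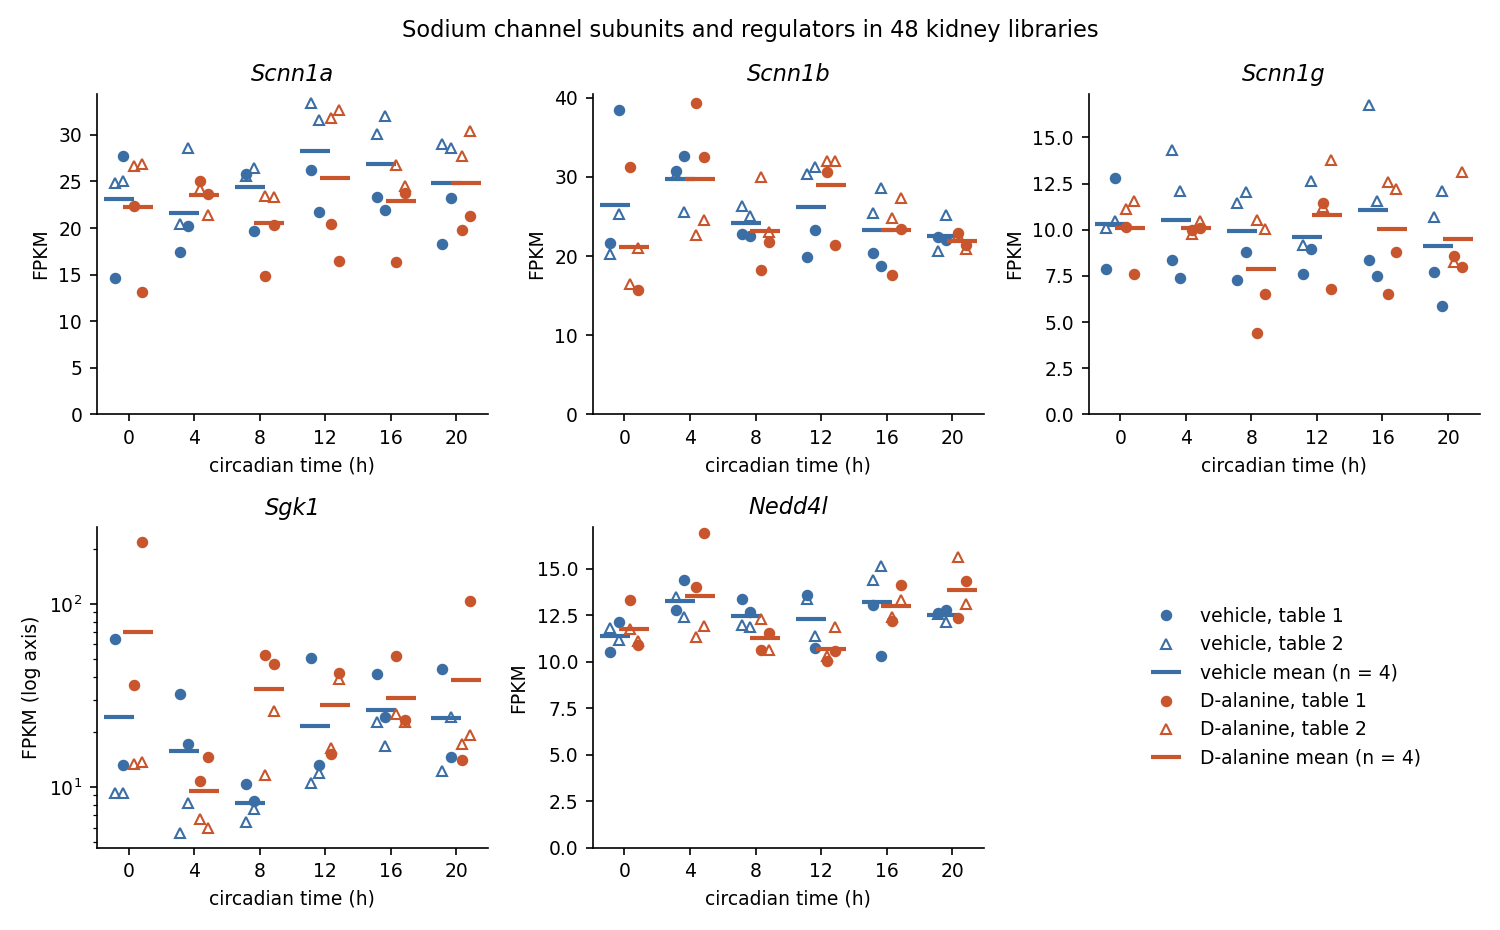
Level of each gene in every library (FPKM) against circadian time in hours, with vehicle in blue and D-alanine in orange, circles for the first table, triangles for the second and bars for group means (n = 4); the Sgk1 axis is logarithmic. Scnn1a, Scnn1b, Scnn1g and Nedd4l libraries of both treatments overlap at each time, while Sgk1 spreads from 5.59 to 218.7 FPKM.

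Scnn1a, the alpha subunit, had its highest group mean in vehicle CT12 and its lowest in D-alanine CT8. The 4 vehicle CT12 libraries held 26.3, 21.7, 33.4 and 31.6 FPKM, in replicate order, and the D-alanine CT12 libraries 20.4, 16.5, 31.8 and 32.7. At CT8 the vehicle libraries held 25.8, 19.7, 25.6 and 26.4 FPKM and the D-alanine libraries 14.9, 20.4, 23.4 and 23.3. The treatments overlapped at both times, and the low values at CT12 were those of the first table. Over all libraries the lowest Scnn1a value, 13.1 FPKM, belonged to replicate 2 of D-alanine CT0, the library that stood apart.

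Scnn1b, the beta subunit, reached its highest levels at different times in the 2 tables. In the first table the 4 libraries of CT4 held 30.7 and 32.6 FPKM in vehicle and 39.4 and 32.5 in D-alanine, and those of CT12 held 19.9 and 23.4 in vehicle and 30.6 and 21.5 in D-alanine. In the second table the CT4 libraries held 30.3 and 25.6 FPKM in vehicle and 22.6 and 24.6 in D-alanine, and the CT12 libraries 30.4 and 31.3 in vehicle and 32.0 and 32.0 in D-alanine. All 4 CT4 libraries of the first table were above all 4 of the second, and at CT12 3 of the 4 first-table libraries were below every second-table library. At CT0 the first table held 21.6 and 38.5 FPKM in vehicle and 31.3 and 15.7 in D-alanine, against 20.2, 25.3, 16.5 and 20.97 in the second. At CT8 the first table held 22.8, 22.6, 18.2 and 21.8 FPKM and the second 26.3, 25.02, 29.9 and 23.0, in the same order, with no overlap. At CT16 they were 20.3, 18.8, 17.6 and 23.4 against 25.4, 28.6, 24.8 and 27.4, again with the first table below the second. At CT20 the tables overlapped, with 22.4, 22.1, 22.9 and 21.4 FPKM in the first and 20.6, 25.2, 22.7 and 20.9 in the second.

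Scnn1g, the gamma subunit, was the lowest of the 5 genes and separated mainly by table, with means of 8.23 FPKM in the first and 11.6 in the second. Its lowest group was D-alanine CT8, with 4.39, 6.54, 10.5 and 10.03 FPKM, against 7.29, 8.81, 11.5 and 12.05 in vehicle CT8. Its highest was vehicle CT16, with 8.36, 7.52, 16.8 and 11.6 FPKM, against 6.53, 8.78, 12.6 and 12.2 in D-alanine CT16. The treatments overlapped in both cases, and within each group of 4 the 2 highest libraries were those of the second table.

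Sgk1 ran highest in scattered libraries of the first table. At CT0 the vehicle libraries held 64.6, 13.2, 9.32 and 9.23 FPKM and the D-alanine libraries 36.1, 218.7, 13.4 and 13.7. At CT4 the values were lower, at 32.2, 17.3, 5.59 and 8.17 in vehicle and 10.8, 14.6, 6.71 and 5.96 in D-alanine. At CT8 the vehicle libraries held 10.3, 8.35, 6.48 and 7.61 FPKM and the D-alanine libraries 52.6, 46.99, 11.6 and 26.1, and CT8 was the single time at which the treatments did not overlap. At CT12 vehicle held 50.4, 13.1, 10.5 and 11.99 FPKM and D-alanine 15.1, 41.9, 16.4 and 38.8. At CT16 vehicle held 41.4, 23.98, 22.6 and 16.8 and D-alanine 52.1, 23.2, 25.02 and 22.7, and here no library was below 16.8. At CT20 vehicle held 44.1, 14.7, 12.3 and 24.1 FPKM and D-alanine 14.03, 103.9, 17.1 and 19.2. The 3 highest values of the series, 218.7, 103.9 and 64.6 FPKM, were all from the first table, whose median was 28.1 against 12.8 in the second.

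Nedd4l (ENSMUSG00000024589) lies at chr18:64887756-65217826 of GRCm38 and shares 277 exon bases with the antisense gene A330084C13Rik. No source used here states whether counting used strand, so reads of Nedd4l and of that antisense gene cannot be told apart where they overlap. The gene stayed between 10.01 and 16.9 FPKM in all libraries. Over both treatments (8 libraries a time) the lowest, median and highest values were 10.5, 11.5 and 13.3 FPKM at CT0, 11.3, 13.1 and 16.9 at CT4, and 10.6, 11.9 and 13.4 at CT8. They were 10.01, 11.1 and 13.6 at CT12, 10.3, 13.2 and 15.1 at CT16, and 12.1, 12.7 and 15.6 at CT20. All times overlapped, with the higher medians at CT4, CT16 and CT20. When the 12 groups of each gene were ordered by mean, all 11 pairs of neighbours overlapped for each of the 5 genes.

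None of the 5 genes passed a test of D-alanine against vehicle, either averaged over the 6 times or at a single time. Tests used limma on log2(FPKM + 1) with the 12 groups and the table in the model, and p-values were adjusted by Benjamini-Hochberg over 14922 genes at 0.05. For the mean over times 0 of 5 passed, against 1.74% of all genes tested (259 genes, with 237 or 1.59% higher and 22 or 0.147% lower in D-alanine). That split depends on the scaling, with 3 higher and 11 lower under quantile normalization. Differences are D-alanine minus vehicle of log2(FPKM + 1), a scale that compresses low genes, and their median over all genes was 0.06. That median also depends on the scaling: it was 0.11 rescaled to TPM and −0.004 under quantile normalization.

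The 3 subunits and the ligase lay close to 0. Scnn1a averaged 24.8 ± 4.90 FPKM (SD, n = 24) in vehicle and 23.2 ± 5.02 (n = 24) in D-alanine, a difference of −0.10 ± 0.06 (SE, 95% interval −0.23 to 0.03, limma adjusted p = 0.378). Scnn1b stood at 25.4 ± 4.89 and 24.7 ± 5.94 FPKM, a difference of −0.05 with an interval of −0.21 to 0.11. For Scnn1g, at 10.1 ± 2.62 and 9.73 ± 2.32 FPKM, the difference was −0.05 with an interval of −0.19 to 0.09. Nedd4l, at 12.5 ± 1.23 and 12.4 ± 1.72 FPKM, had the narrowest interval, −0.10 to 0.06 around −0.02. The directions of 3 of these depend on the scaling: rescaled to TPM, the Scnn1b, Scnn1g and Nedd4l values turned to 0.0030, 0.0048 and 0.030. Comparing means within each time and table, D-alanine was the higher in 3 of 12 pairs for Scnn1a, in 5 of 12 for Scnn1b, in 5 of 12 for Scnn1g and in 5 of 12 for Nedd4l.

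Sgk1 had the largest treatment difference of the 5 and the widest interval. Vehicle libraries had a median of 13.2 FPKM and D-alanine libraries 20.9 (means 19.9 ± 15.7 and 35.3 ± 44.5), and D-alanine was the higher in 8 of 12 pairs, 4 in each table. The fitted difference was 0.56 ± 0.22 (95% interval 0.11 to 1.01), which is 1.48-fold (1.08 to 2.02). It did not pass, with a limma p of 0.0154 and an adjusted p of 0.150, and an unadjusted p under 0.05 was reached by 20.5% of all genes. Without replicate 2 of D-alanine CT0 the difference was 0.44 and the limma adjusted p 0.234.

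At single times the Sgk1 difference was largest at CT8, 1.75 ± 0.54, or 3.37-fold (95% interval 1.57 to 7.22). All 4 D-alanine libraries were above all 4 vehicle libraries there, as they were for 6.15% of all genes at CT8 (918). The limma p was 0.00261 and the adjusted p 0.272, and no gene of 14922 passed at CT8 (2215 had an unadjusted p under 0.05). At CT0 the Sgk1 difference was 1.03 with a limma adjusted p of 0.256, and 0.32 with 0.839 without replicate 2 of D-alanine CT0. At that time 1.14% of all genes passed (170), and 0 passed without that library. The remaining Sgk1 differences were −0.47 at CT4, 0.54 at CT12, 0.21 at CT16 and 0.32 at CT20. Of the other members, the largest single-time differences were −0.34 for Scnn1g at CT8 (limma adjusted p = 0.339) and −0.32 for Scnn1b at CT0 (0.324), which was −0.21 without replicate 2 of D-alanine CT0 (0.722). The share of all genes passing was 0% at each of CT4, CT8, CT12, CT16 and CT20. No member, and no gene, passed the limma test of whether the treatment difference depended on the time (Sgk1 adjusted p = 0.965, with 527 genes at an unadjusted p under 0.05), or on the table (573 genes at an unadjusted p under 0.05).

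**Figure D2:**
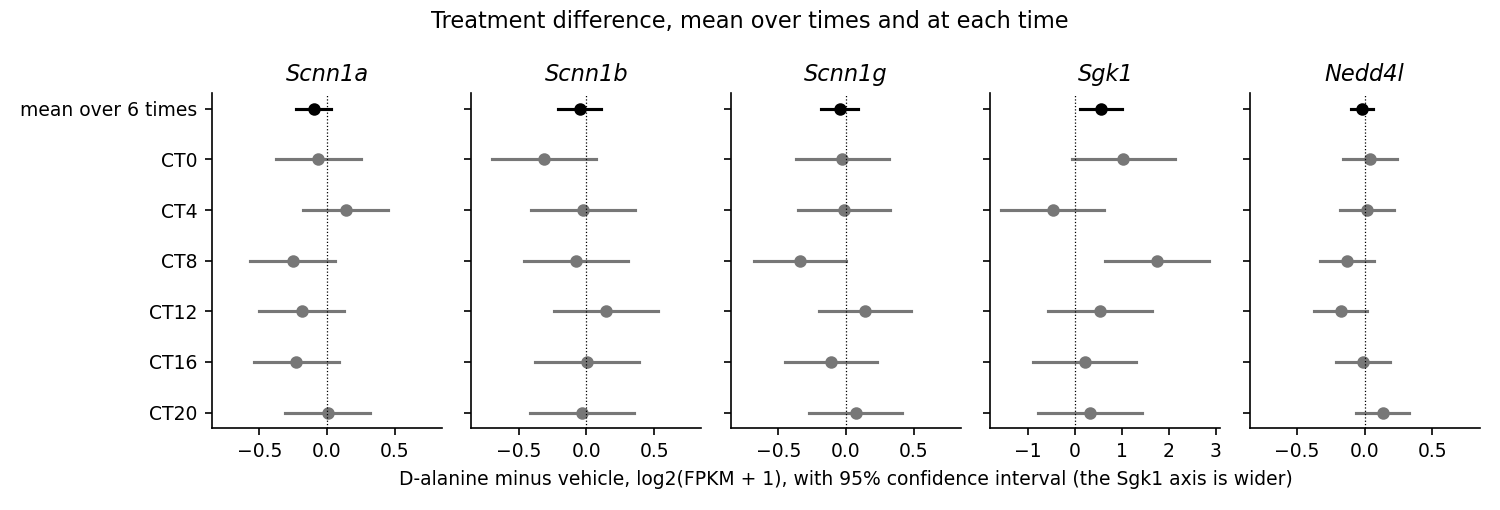
Treatment difference, D-alanine minus vehicle on the log2(FPKM + 1) scale, averaged over the 6 times and at each time, with points for limma estimates and bars for 95% intervals; the Sgk1 axis is wider than the others. Sgk1 at CT8 lies at 1.75, and the averages of Scnn1a, Scnn1b, Scnn1g and Nedd4l lie between −0.10 and −0.02.

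Markers of other kidney cells moved with the Sgk1 values. Summed inner medulla markers (Slc14a2, Akr1b3, Slc5a3, Slc6a6 and Aqp1) ran from 155.7 to 447.3 FPKM in vehicle with a median of 323.5, and from 147.8 to 895.7 in D-alanine with a median of 348.4. Most of the sum was Aqp1, which averaged 228.6 FPKM of a mean sum of 302.5 in vehicle and 241.2 of 362.4 in D-alanine. The sum is thus mainly a reading of Aqp1 and no measure of the amount of inner medulla. Its median was 278.5 FPKM in the first table and 342.3 in the second, where Sgk1 was the lower. Slc14a2 averaged 10.6 and 17.4. All 5 markers had a mean treatment difference above 0, with a median of 0.14, and none passed the test. The median over all genes was itself above 0, at 0.06, and depends on the scaling. Slc14a2, the urea transporter that defines the region, ran from 0 to 101.9 FPKM and was at 0 in 1 library. Summed endothelial markers ran from 26.5 to 76.8 FPKM in vehicle (median 39.5) and from 30.8 to 150.1 in D-alanine (median 46.3), with all 6 above 0, a median difference of 0.18 and none past the test. Principal cell markers had median sums of 454.6 and 571.1 FPKM, ranging from 263.6 to 1303 in vehicle and from 222.6 to 3272 in D-alanine. Aqp2 alone averaged 321.9 FPKM in vehicle and 477.5 in D-alanine. The directions were mixed and none passed. Mean treatment differences were 0.28 for Aqp2, 0.15 for Gata3, 0.09 for Avpr2 and 0.03 for Aqp3. For Aqp4, Fxyd4 and Hsd11b2 they were −0.08, −0.01 and −0.14. Covariates were the mean log2(FPKM + 1) of the markers of a list, not their sums. With the inner medulla markers as a covariate the Sgk1 mean difference was 0.32 (limma adjusted p = 0.108, where 1.78% of all genes passed), and the CT8 difference 0.90. With the principal cell markers instead it was 0.51 and passed (limma adjusted p = 0.0116, where 8.1% of all genes passed), and the CT8 difference was 1.10. Without replicate 2 of D-alanine CT0, the highest D-alanine sums were 495.6 FPKM (inner medulla), 93.3 (endothelium) and 1413 (principal cell). The Sgk1 mean difference was then 0.27 with the inner medulla covariate (limma adjusted p = 0.0956) and 0.45 with the principal cell covariate (0.0146). The part of these cells in the Sgk1 result was not tested beyond these fits. Markers of tissue around the kidney differed in level. Adrenal cortex markers summed to at most 2.58 FPKM, with Cyp11b1 at 0 in all 48 libraries. Adipose markers (Adipoq, Plin1, Cfd and Cidec) summed to 0 to 11.3 FPKM in vehicle (median 0.609) and 0 to 41.6 in D-alanine (median 1.42). The 3 that were tested, Cfd, Adipoq and Cidec, had mean differences of 1.06, 0.41 and 0.30 that did not pass (limma adjusted p = 0.134, 0.125 and 0.202). Across libraries Sgk1 had r of 0.461 with them (rho 0.409, permutation adjusted p = 0.00732), and their part in the Sgk1 result was not tested.

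A test of time was passed by Nedd4l, close to the threshold and with a small span. Over both treatments, 1 of 5 members passed the limma test of any difference between the 6 times, where 20.5% of all genes did. That count is near the share of all genes and shows nothing particular to the members. Nedd4l means (n = 8) ran from 11.5 FPKM at CT12 and 11.6 at CT0 to 13.1 at CT16, 13.2 at CT20 and 13.4 at CT4, a span of 0.20 on the log2 scale (limma adjusted p = 0.0445). The median gene spanned 0.28. Without replicate 2 of D-alanine CT0 the adjusted p was 0.0668, and the call was lost when any of 32 of the 48 libraries was left out. Sgk1 spanned 1.24 (limma adjusted p = 0.0868), Scnn1b 0.39 (0.108), Scnn1a 0.24 (0.341) and Scnn1g 0.22 (0.432), and these did not pass.

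A 24 h cosine fitted over both treatments called Sgk1, at the edge of the threshold, and none of the other 4. The fitted Sgk1 curve had an amplitude of 0.52 ± 0.17 on the log2 scale, a 2.06-fold change from trough to peak, and peaked at CT17.7 (limma adjusted p = 0.04996, where 25.9% of all genes passed). The count of members called was not above that share and shows nothing particular to them. Leaving out single libraries lost the call in 34 of 48 cases, with amplitudes from 0.47 to 0.59, and without replicate 2 of D-alanine CT0 the amplitude was 0.55 and the limma adjusted p 0.0126. With the inner medulla markers as a covariate the amplitude was 0.26 (limma adjusted p = 0.0595), and with the principal cell markers 0.27 (0.104). Without that library these became 0.31 (limma adjusted p = 0.00737) and 0.32 (0.0247), which pass. Scnn1a peaked at CT14.9 with an amplitude of 0.11 (limma adjusted p = 0.149) and Scnn1b at CT7.14 with 0.13 (0.204). In vehicle alone and in D-alanine alone 0 of 5 members passed, where 9.77% and 8.3% of all genes did. The Sgk1 amplitude was 0.63 in vehicle (limma adjusted p = 0.177) and 0.43 in D-alanine (0.437). No gene passed the limma test of a difference in rhythm between the treatments (353 had an unadjusted p under 0.05).

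The 2 tables gave different pictures of time. In the second table alone, 3 of 5 members had a 24 h rhythm over both treatments, where 19% of all genes did. Sgk1 had an amplitude of 0.72 ± 0.11 with a peak at CT16.1 (limma adjusted p = 0.000405), Scnn1b 0.25 ± 0.04 with a peak at CT11.2 (0.00155) and Scnn1a 0.18 ± 0.04 with a peak at CT15.4 (0.0122). In that table all 4 Sgk1 libraries of CT4, at 5.59 to 8.17 FPKM, were below all 4 of CT16, at 16.8 to 25.02. In the first table alone 0 of 5 passed, where 11.7% of all genes did: the Sgk1 amplitude was 0.48 with a peak at CT20.2 (limma adjusted p = 0.511), that of Scnn1b 0.25 ± 0.09 with a peak at CT3.29 (0.127), and that of Scnn1a 0.04 (0.906). Within the second table Sgk1 passed in vehicle (0.75, limma adjusted p = 0.0174, where 4.44% of all genes passed) and, with Scnn1b, in D-alanine (0.77, adjusted p = 0.0135, and 0.32, adjusted p = 0.00964, where 4.83% passed).

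A test of the difference in rhythm between the tables, added after the data had been seen, called Scnn1b and none of the other 4. The Scnn1b curves differed by 0.43 ± 0.10 on the log2 scale (limma adjusted p = 0.0375, where 1.14% of all genes passed). The call was lost when any of 19 of the 48 libraries was left out, with limma adjusted p up to 0.0791. Over these 48 fits the number of genes called ran from 12 to 579. Its means (n = 4) were 33.8 FPKM at CT4 and 23.8 at CT12 in the first table, against 25.8 and 31.4 in the second. For Sgk1 the difference was 0.65 (limma adjusted p = 0.443) and for Scnn1a 0.15 (0.541), so the tables' separate results for these 2 genes were not shown to differ. The tables also differed in level. The second was higher for Scnn1a by 0.39 (limma adjusted p = 1.18e-06) and for Scnn1g by 0.46 (2.84e-07), and lower for Sgk1, at −1.04 (9.58e-05), where 64% of all genes passed, 41% higher and 23% lower. Scnn1b, at 0.07 (limma adjusted p = 0.460), and Nedd4l, at −0.01 (0.889), did not pass. These level differences are on the FPKM scale and are not adjusted for the mitochondrial share. That share was higher in every library of the first table than in any of the second, and its part in the level differences was not tested.

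**Figure D3:**
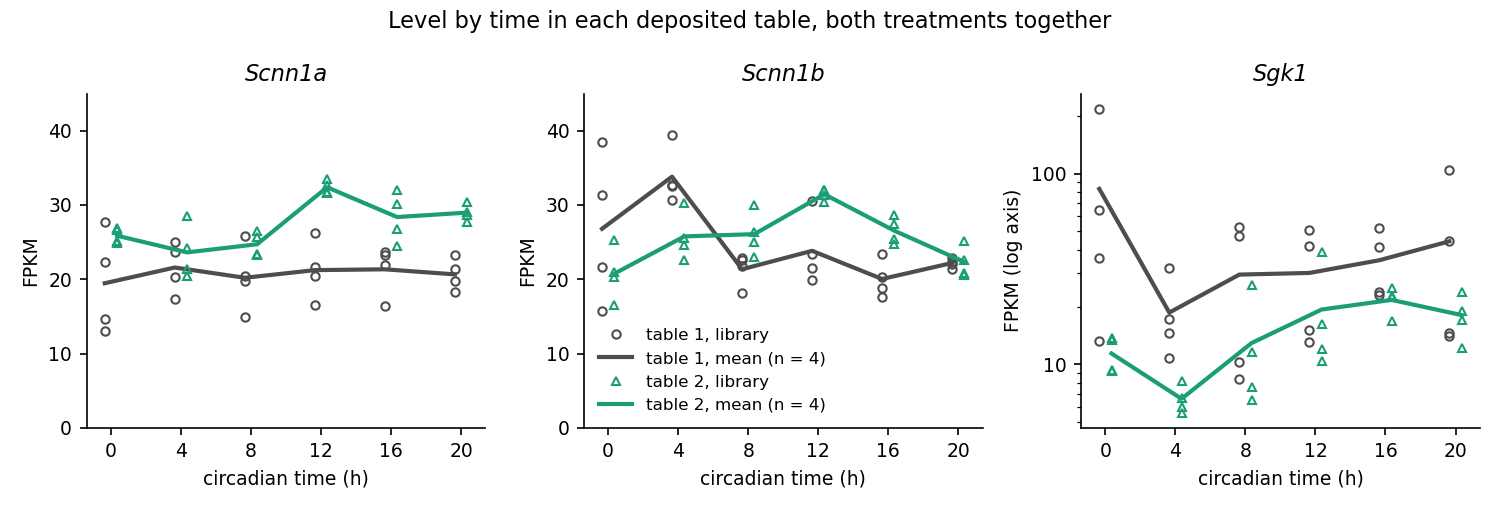
Level (FPKM) of Scnn1a, Scnn1b and Sgk1 against circadian time in hours in the first table (grey circles) and the second (green triangles), with lines through the means of 4 libraries of both treatments; the Sgk1 axis is logarithmic. Scnn1b is highest at CT4 in the first table (33.8 FPKM) and at CT12 in the second (31.4), and the second-table Sgk1 line runs from its lowest point at CT4 to its highest at CT16.

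Across libraries, Sgk1 followed markers of the medulla and vessels, while Scnn1b and Scnn1g followed markers of intercalated cells, the acid and base transporting neighbours of principal cells in the collecting duct. These relations were computed over 48 libraries on the log2 scale with table means subtracted, among 70 relations with p from 100000 permutations within tables and Benjamini-Hochberg adjustment. A marker list entered as the mean log2(FPKM + 1) of its tested markers, not as its summed FPKM. The libraries include different treatments and times, which the relations do not separate. For Sgk1 and the inner medulla markers Pearson's r was 0.865 and Spearman's rho 0.881 (permutation adjusted p = 0.000175). The r was 0.942 in the first table and 0.665 in the second. Leaving out the 2 libraries farthest from the median left r at 0.846. For the endothelial markers r was 0.809 (rho 0.818) and 0.792 without the 2 farthest, for the principal cell markers 0.798 (rho 0.798) and 0.773, and for the proximal tubule markers −0.564 (rho −0.542) and −0.467. Sgk1 was high in libraries with high inner medulla and low proximal tubule markers, and the library with 218.7 FPKM held the highest sums of principal cell (3272), inner medulla (895.7) and endothelial (150.1) markers and the lowest of proximal tubule markers (1428).

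For Scnn1b and the intercalated cell markers r was 0.766 (rho 0.681, permutation adjusted p = 0.000175), and 0.719 without the 2 farthest libraries. The relation was stronger in the first table, with r of 0.902, than in the second, with 0.435, a difference that was not tested. Scnn1g had r of 0.571 with the same markers (rho 0.508), and 0.483 without the 2 farthest, with r of 0.698 in the first table and 0.271 in the second. Its relation with distal convoluted tubule markers also passed by r (0.381, permutation adjusted p = 0.041), with 0.394 without the 2 farthest. By rho (0.320) it did not pass (permutation adjusted p = 0.104). Scnn1b went the other way with thick ascending limb markers (r = −0.559, rho −0.502, −0.480 without the 2 farthest) and with inner medulla markers (r = −0.529, rho −0.453, −0.508 without the 2 farthest). With principal cell markers no subunit had a relation that passed, at r of −0.203 for Scnn1a, −0.143 for Scnn1b and −0.0155 for Scnn1g. The mean of the list does not stand for each of its markers. Hsd11b2, a gene of that list, had r of 0.629 with Scnn1a and 0.715 with Scnn1g, and the other markers are not given singly. Scnn1a had no relation with any of the marker lists that passed. For Nedd4l 1 passed by r, with macrophage markers (r = 0.466), which was 0.312 without the 2 farthest libraries. By rho (0.323) that relation did not pass (permutation adjusted p = 0.101).

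**Figure D4:**
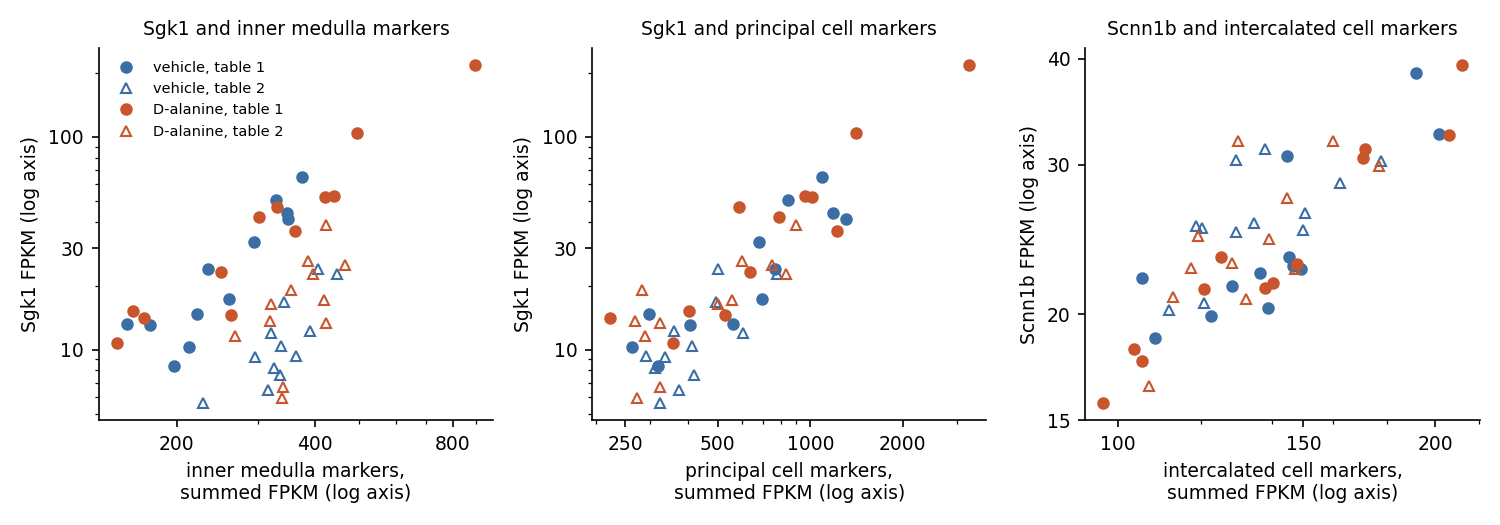
Level of Sgk1 (FPKM) against summed inner medulla and principal cell markers, and of Scnn1b against summed intercalated cell markers, for 48 libraries on logarithmic axes, coloured by treatment and shaped by table. Sgk1 rises with both sums, with the D-alanine CT0 library of 218.7 FPKM at the far end, and Scnn1b rises with the intercalated cell sum. The r of 0.766 for Scnn1b belongs to the mean log2 value of these markers with table means subtracted, not to the sum shown. Most of the inner medulla sum is Aqp1.

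Among the members, the subunits went together in part. The closest pair was Scnn1b and Scnn1g, neighbours on chromosome 7, with r of 0.551 (rho 0.539, permutation adjusted p = 0.001), 0.456 without the 2 farthest libraries, 0.696 within the first table and 0.252 within the second. Scnn1a and Scnn1b had r of 0.414 and Scnn1a and Nedd4l 0.405 (permutation adjusted p = 0.0335 for both). For Scnn1a and Scnn1b rho was 0.333 and did not pass (permutation adjusted p = 0.101), and r was 0.31 without the 2 farthest libraries. That pair had r of 0.507 in the first table and 0.219 in the second. Scnn1a and Nedd4l had 0.53 and 0.178. Scnn1a and Scnn1g, at 0.371, did not pass (permutation adjusted p = 0.0592). Scnn1b and Sgk1 had r of −0.397 (permutation adjusted p = 0.0479), which was −0.594 in the first table and 0.0574 in the second, so the relation did not hold within the second. Their rho of −0.374 did not pass (permutation adjusted p = 0.0599). Scnn1a and Sgk1 had opposite signs in the tables, −0.615 in the first and 0.481 in the second, and −0.283 pooled.

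The genes most like each member, by Pearson's r over the same 48 libraries, are given as a description, since all points share libraries and depth. For Scnn1a they were Esrra (the nuclear receptor ERR alpha, r = 0.704), Rhcg (an ammonia channel of the collecting duct, 0.668), Pmm2 (0.644), Inpp5j (0.636) and Hsd11b2 (the enzyme that shields the mineralocorticoid receptor from glucocorticoid, 0.629). For Scnn1b they included Col26a1 (0.823), Slc4a9 (an anion exchanger of intercalated cells, 0.818), Atp6v1c2 (a proton pump subunit, 0.809) and Rhbg (an ammonia transporter, 0.800). For Scnn1g they were Kcne1 (a potassium channel subunit, 0.743), Hsd11b2 (0.715), Calb1 and Trpv5 (calcium binding and calcium entry in the distal tubule, 0.657 and 0.647) and Cav1 (0.596). Slc4a9, Hsd11b2 and Calb1 are also in the marker lists used here. Sgk1 had the closest companions: Gem (a small GTP-binding protein, 0.940), Marveld1 (0.931), Plat (tissue plasminogen activator, 0.929), Tmem200b (0.926) and Cpne2 (0.924). Nedd4l had the loosest, led by Mzb1 (0.635), Dhx57 (0.614), Kng2 (0.609), Ifi213 (0.583) and Atp10d (0.575). In the second table alone the leading 5 shared 0 genes with these for Scnn1a, Scnn1b and Nedd4l, 1 for Scnn1g and 2 for Sgk1.

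Other genes of the pathway were taken as lists. For the mean treatment difference, which 1.74% of all genes passed, 1 gene passed in all 5 lists: Mlst8, a subunit of the kinase complexes mTORC1 and mTORC2, the latter an activator of SGK1, was higher in D-alanine by 0.20 ± 0.04 (limma adjusted p = 0.0139). Mlst8 stayed higher under every scaling tried, but did not pass under quantile normalization (0.12, limma adjusted p = 0.217) or median centring (0.13, 0.172). Among 12 SGK1 relatives, activators and NEDD4L partners it was the single call, with 11 of 12 above 0 and a median of 0.08, against 0.06 for all genes. Of the proteases that cleave ENaC and their inhibitors, 0 of 9 tested passed (8 above 0, median 0.08), with the smallest p for Furin (0.15, limma adjusted p = 0.103). Of 10 genes of corticosteroid reception and response 0 passed (9 above 0, median 0.09), with the smallest p for Cnksr3 (0.18, limma adjusted p = 0.0612), a scaffold protein of the channel. Of 7 genes of the sodium pump and potassium channels of the same cells 0 passed (4 above 0, median 0.01), and of 4 chromatin regulators of Scnn1a 0 passed (3 above 0, median 0.07). The median over all genes was also above 0 and depends on the scaling. The counts above 0 are therefore not read as a rise of any list.

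Of the 10 corticosteroid genes, 5 had a 24 h rhythm over both treatments and 7 differed between times, where 25.9% and 20.5% of all genes did. Per1, a clock gene that corticosteroids also induce, averaged 3.69 FPKM at CT0 and 17.5 at CT12 (n = 8), and its fitted curve peaked at CT12.7 with a 3.21-fold change (limma adjusted p = 2.66e-09). Usp2, which encodes a deubiquitinase that removes ubiquitin from ENaC, went from 15.8 FPKM at CT0 to 40.1 at CT12 and peaked at CT12.8 (2.30-fold, limma adjusted p = 1.43e-11). Tsc22d3, which encodes GILZ, a hormone-induced regulator of the channel, averaged 5.46 FPKM at CT4 and 21.2 at CT16, with no overlap between those times, and peaked at CT16.1 (2.95-fold, limma adjusted p = 2.72e-06). In the first table alone Tsc22d3 did not pass (0.70, limma adjusted p = 0.0695). Fkbp5, a glucocorticoid-induced chaperone, peaked at CT17.2 (1.56-fold, limma adjusted p = 0.00113). Over both tables the fitted peaks of Tsc22d3, Fkbp5 and Sgk1 (CT17.7) lay within 2 h of each other, while those of Per1 and Usp2 were earlier. The list thus shared no single peak time. For Tsc22d3, Fkbp5 and Sgk1 the peaks were CT16.9, CT16.1 and CT20.2 in the first table alone, where the Sgk1 rhythm did not pass. In the second alone they were CT15.6, CT18.6 and CT16.1.

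In the other lists the share with a rhythm was near or below the 25.9% of all genes, so these counts show nothing particular to them, and their called genes are given as values. Among the proteases and inhibitors 2 of 9 had a rhythm. Prss8, the channel-activating protease prostasin, averaged 112.6 FPKM at CT0 and 177.6 at CT8 and peaked at CT10.2 (1.49-fold, limma adjusted p = 2.27e-07), and Spint1, a protease inhibitor, peaked at CT7.09 (1.11-fold). Among the SGK1 relatives and partners 3 of 12 did: Sgk2, a relative of Sgk1, peaked at CT7.70 (1.39-fold), with means of 39.2 FPKM at CT0 and 54.7 at CT8, Mlst8 at CT19.3 (1.16-fold) and Ywhae, a 14-3-3 protein, at CT0.85 (1.12-fold). In the remaining lists Kcnj1, the ROMK potassium channel that secretes potassium beside ENaC, peaked at CT22.1 (1.39-fold) and Dot1l, a histone methyltransferase that represses Scnn1a, at CT17.0 (1.21-fold). These were 1 of 7 and 1 of 4.

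**Figure D5:**
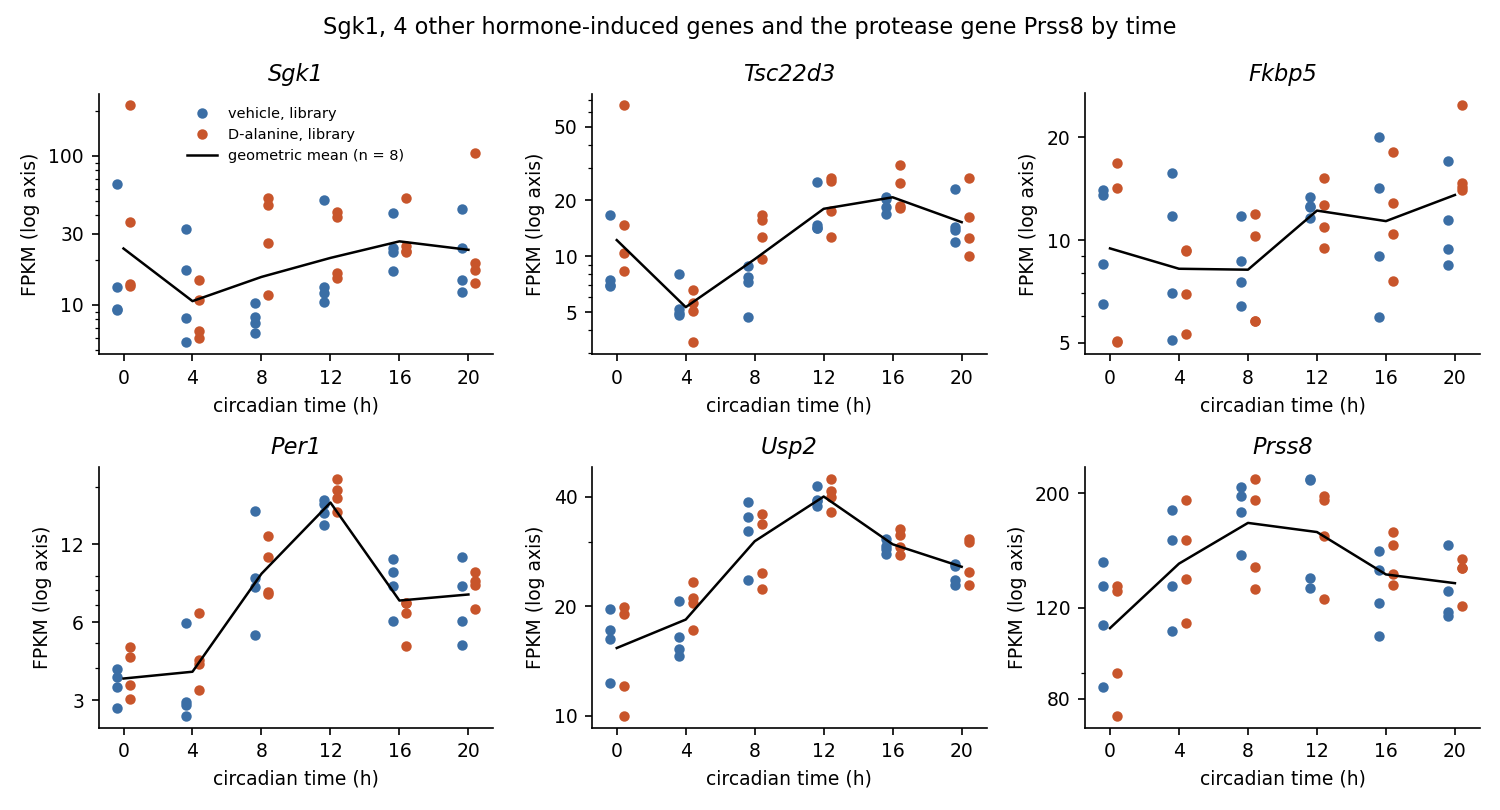
Level (FPKM, logarithmic axis) of Sgk1, Tsc22d3, Fkbp5, Per1, Usp2 and Prss8 against circadian time in hours, with points for libraries coloured by treatment and black lines for geometric means of 8 libraries. Usp2 and Per1 are highest at CT12, Prss8 at CT8, and Sgk1 and Tsc22d3 are lowest at CT4 and high at CT16.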

How the data were processed

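Per the labels' protocols, kidney RNA was extracted with Qiagen RNeasy and sequenced after SMARTER mRNA library preparation. The authors deposited FPKM per gene in 2 tables. The build was GRCm38 (mm10), per the submitters' processing notes, and no aligner or counter is named in the sources used here. Groups came from the labelled treatment and time. Fragments per library were recovered from the steps of low FPKM values and GENCODE M21 exon lengths. A gene was tested if 4 or more libraries reached an FPKM of 1 (14922 genes, all 5 members among them), a pseudocount of 1 was added, and log2 values were fitted with limma 3.58.1 in R 4.3.3, with empirical Bayes moderation and a trend, the table as an additive term, and for rhythm a cosine and sine of 24 h per treatment. Tests were two-sided with Benjamini-Hochberg adjustment at 0.05, and the fits were tested on simulated data. Correlations and figures used Python 3.11.15, SciPy 1.17.1, NumPy 2.4.6 and matplotlib 3.10.9. The members, lists and tests were chosen with earlier results of these data known. Named genes were the members, up to 4 called genes per list and comparison with the smallest p (the smallest p alone where none passed), and the 5 genes most like each member, of which 1 is not reported here. Alternatives changed the pseudocount, filter, scaling, table term, moderation, covariates and libraries used. Motifs were sought in RefSeq windows that overlap no annotated exon of GENCODE M21.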

Additional observations from a re-analysis of the deposited data

Results flagged for a closer look

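In 8 of the 60 groups of 4 libraries, counted over the 5 genes, the library at the top or bottom was separated from the other 3 by more of the group's range than Dixon's 95% limit, where chance gives about 1 in 20 groups. Of these, 5 were Sgk1, each with 1 library high: 64.6 FPKM in replicate 1 of vehicle CT0, 50.4 in replicate 1 of vehicle CT12, 218.7 in replicate 2 of D-alanine CT0, 52.1 in replicate 1 of D-alanine CT16 and 103.9 in replicate 2 of D-alanine CT20. All 5 were libraries of the first table. The other 3 were Scnn1a, lowest at 19.7 FPKM in replicate 2 of vehicle CT8, Scnn1b, lowest at 21.5 in replicate 2 of D-alanine CT12, and Scnn1g, highest at 13.1 in replicate 4 of D-alanine CT20. The rate of 1 in 20 assumes 4 values from a single normal distribution. Each group pools both tables, and the Sgk1 median was 28.1 FPKM in the first table against 12.8 in the second. The count of 8 in 60 is therefore not read as an excess. The rhythm of Scnn1b differed between the tables by 0.43 on the log2 scale (limma adjusted p = 0.0375), in a test added after the data had been seen. That call was lost when any of 19 of the 48 libraries was left out.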

How the results depend on the processing

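Precision was limited by 4 libraries a group and by the spread of Sgk1, while depth limited Scnn1g most. No paired analysis was possible because the replicate numbers were given in accession order and pair no samples. All of the mean treatment differences kept their direction and missed the threshold under every alternative, with these exceptions: rescaling to TPM gave 0.0030 for Scnn1b, 0.0048 for Scnn1g and 0.030 for Nedd4l, the first table alone gave 0.0091 for Nedd4l, and a principal cell covariate brought 1 member, Sgk1, past the threshold at 0.51, or at 0.45 without replicate 2 of D-alanine CT0. The Sgk1 difference at CT12 was −0.035 in the first table alone, that at CT0 −0.12 with an inner medulla covariate and without replicate 2 of D-alanine CT0 (a fit added after the data had been seen), and leaving out single libraries gave −0.16 to 0.80 at CT20 and −0.27 to 0.14 for its treatment by table term. Of 30 single-time differences, 16 changed sign under at least 1 of 61 alternatives, all of them 0.54 or smaller in size, and 0 passed under any. These 61 do not include the later fit that gave −0.12 for Sgk1 at CT0, a difference of 1.03 in the main fit. The time difference of Nedd4l, and with it the count of members called, was lost (0 members) without a filter (0.20), under median centring (0.25), without mitochondrial genes (0.19), without the table term (0.20) and when the first table was taken alone (0.35). In the second table alone Nedd4l (0.25) was lost and 3 members passed, Scnn1a (0.45), Scnn1b (0.59) and Sgk1 (1.58), where 6.97% of all genes did, and 2 members passed, Nedd4l and Sgk1, with a principal cell (Sgk1 0.92) or inner medulla (Sgk1 0.72) covariate, where 26.3% and 23.3% did. The rhythm of Sgk1 was lost (0 members) without a filter (0.52), under TPM (0.54), quantile normalization (0.51), without mitochondrial genes (0.52), without the table term (0.52), with robust moderation (0.52), in the first table alone (0.48) and with a principal cell covariate (0.27). With an inner medulla covariate Sgk1 was lost (0.26) and Scnn1a passed (0.13), and in the second table alone 3 members passed, with Scnn1b at 0.25 and Scnn1a at 0.18. The count of members with a rhythm in vehicle became 1 in the second table alone and with an inner medulla covariate, and that in D-alanine 2 in the second table alone. The rhythm of Scnn1b did not differ between the tables past the threshold (0 members) without a filter, under quantile normalization or under median centring. Leaving out single libraries gave time spans of 0.19 to 0.24 for Nedd4l, 0.31 to 0.46 for Scnn1b and 1.15 to 1.38 for Sgk1 (0 to 2 members called), an Sgk1 rhythm of 0.47 to 0.59 (0 to 1), 0 to 1 members with a rhythm in vehicle and 0 to 1 with a rhythm that differed between tables. The number of genes called for the mean treatment difference, 259, became 145 without a filter, 2668 under TPM, 14 under quantile normalization, 23 under median centring, 52 without mitochondrial genes, 17 without the table term, 0 and 14 in the first and second tables, and 1208 with a principal cell covariate.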
